A study of Mus musculus with 21 samples.

Results

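The serotonin receptor gene Htr7 was followed with 7 other genes of cAMP signaling in inflammatory monocytes (IMs) from lung tumors and from bone marrow (BM). The other genes were Adora2a and Adora2b (adenosine receptors), Ptger2 and Ptger4 (prostaglandin E2 receptors), Crem (a cAMP-responsive transcription factor), and Pde4b and Pde4d (phosphodiesterases that break down cAMP). These 8 genes, taken by symbol from the 23420 genes counted, were chosen with the differences between tumor-infiltrating IMs (TIMs) and BM IMs already known. Their values in those contrasts, counts past a threshold included, are therefore a description that supports nothing. Results are drawn only from contrasts that the choice did not use. These reuse the same libraries, so they are not independent of the choice.

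RNA-Seq was performed on 21 libraries of IMs in 5 groups, sorted as CD45+ SiglecF- CD11b+ Ly6G- cells with high Ly6C. FVB mice received KAL-LN2-E1 (LN2E1) cells, a lung squamous carcinoma line made by passaging in mice, in the lung, and TIMs were sorted from primary tumors (n = 5) and lymph node metastases (n = 5). DBA2 mice received LN4K1 cells, derived from the line KLN-205, intravenously, and TIMs were sorted from the resulting lung metastases (n = 5). The controls were BM IMs of naïve FVB (n = 3) and naïve DBA2 (n = 3) mice, so that tumor and control also differ in tissue. The study describes mincing and enzyme digestion for lung tissue and names no such step for marrow. The part of this handling was not tested. Each model rests on 1 cell line, and the labels give no engineered allele and no ages and do not tie libraries to animals. The methods of the study call the libraries of a group technical replicates, and the p-values below measure only the spread between these libraries.

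All 5 receptors are G protein-coupled receptors that can act through the stimulatory protein Gs. Gs activates adenylyl cyclases, which make cAMP, and cAMP activates protein kinase A (PKA) and Epac. PKA phosphorylates CREB, which binds the cAMP response element (CRE) in target genes, and phosphodiesterases end the signal. In myeloid cells this pathway is known for lowering the output of inflammatory cytokines, and Crem and Pde4b are themselves known cAMP-induced genes.

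Promoter windows from RefSeq (build GRCm38.p6), 250 bases before each annotated start, were read for the genes measured here. There were 9 windows for 6 of the 8 genes, and Adora2a and Crem had no entry. The full CRE, TGACGTCA, was searched on both strands, and it was in 0 of the 9 windows and in 1.55% of all 32851 windows of the table. Its core, TGACG on either strand, lies inside the full CRE and was in 2 of the 9 windows, among them 1 of the 4 of Pde4b, against 17.8% of all windows. The stretch of 30 bases around the core of Pde4b is shown because Pde4b was the most abundant of the 8 genes in every TIM group, and the capitals mark the core as it reads on the strand of the gene. The core begins 34 bases before the RefSeq start, and the stretch, at chr4:102421509-102421538 (plus strand), touches an annotated GENCODE exon. The whole Ptger4 window, at chr15:5244188-5244437 (minus strand), is shown beside it as a window of a gene that was high in TIMs with neither sequence.
Pde4b: gatttggctgcaCGTCAattttctcatctg
Ptger4: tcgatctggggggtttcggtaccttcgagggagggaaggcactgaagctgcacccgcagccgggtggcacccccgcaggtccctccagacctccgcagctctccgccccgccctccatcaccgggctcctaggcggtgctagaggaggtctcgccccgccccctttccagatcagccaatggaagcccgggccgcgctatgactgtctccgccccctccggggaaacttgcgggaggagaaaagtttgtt

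Total counts were between 80772922 and 101043568 per library. Values are given as CPM, counts per 1000000 counted reads after TMM scaling over the 21 libraries. All 6 markers of the sorted monocytes were detected in every group. Mean Ly6c2 was 1245, 1337 and 1483 CPM in primary tumors, lymph nodes and LN4K1 lungs. It was 3023 CPM in FVB and 2583 CPM in DBA2 marrow. The other markers had higher means in TIMs than in marrow of the same strain. Summed macrophage markers had medians of 1084, 1250 and 1085 CPM in these TIM groups and 813 and 700 CPM in FVB and DBA2 marrow. Among them, mean C1qa, C1qb and C1qc were lower in LN4K1 lungs than in DBA2 marrow. Of the other cell types checked, summed fibroblast markers reached 348 to 1052 CPM in primary tumor TIMs, against at most 0.359 CPM in BM IMs, 0.836 to 87.0 CPM in lymph node TIMs and 1.31 to 42.9 CPM in LN4K1 lung TIMs. Squamous epithelium markers had medians of 5.95, 1.67 and 0.464 CPM in primary tumors, lymph nodes and LN4K1 lungs. Endothelium markers had medians of 11.1, 6.31 and 2.26 CPM there. In BM IMs these sums were at most 0.123 and 0.742 CPM. Eosinophil markers reached 414 to 1073 CPM in BM IMs and at most 67.1 CPM in TIMs, and neutrophil markers were at 2475 to 2939 CPM in FVB BM IMs and between 219 and 1299 CPM in the other groups. In these bulk samples, fewer cells of a type and less RNA per cell cannot be told apart. Lymph node replicate 1 and LN4K1 lung replicate 3 were the libraries least like their groups (median correlation of log2 CPM 0.895 and 0.926), followed within primary tumors by replicate 3 (0.954).

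Htr7 (chr19:35958734-36057507, minus strand) encodes the 5-HT7 serotonin receptor. Its raw counts were 7, 1 and 1 in the FVB BM IM libraries and 0, 2 and 0 in those of DBA2 mice. The 5 primary tumor libraries had 31.1, 48.5, 34.0, 36.6 and 39.4 CPM, the lymph node libraries 54.2, 31.4, 24.9, 57.1 and 42.2 CPM, and the LN4K1 lung libraries 5.45, 6.33, 8.79, 8.61 and 6.69 CPM. Htr7 was thus close to the limit of detection in marrow of both strains and present in each TIM library, with no overlap. The fitted log2 fold change was 10.20 (SE 0.46) in primary tumors and 10.35 (SE 0.69) in lymph nodes against FVB BM IMs, and it rose to 11.77 and 11.90 without FVB replicate 1, the library with 7 counts. All DBA2 BM IM libraries were at or under 3 counts, the floor used here (0.0308 CPM as the mean over those libraries), so the LN4K1 lung mean of 7.17 CPM was at least 233-fold higher.

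Between the TIM groups, Htr7 was at 37.9 ± 6.67 CPM in primary tumors and 42.0 ± 14 CPM in lymph nodes (SD, n = 5 each). The log2 difference of 0.16 (SE 0.23) did not pass the test (edgeR quasi-likelihood, adjusted p = 0.719). LN4K1 lung TIMs had 7.17 ± 1.46 CPM (SD, n = 5), 5.35-fold less than primary tumor TIMs (log2 fold change -2.42, SE 0.17, adjusted p = 3.49e-06), and every LN4K1 library lay under every LN2E1 library. Fibroblast markers were also higher in primary tumor TIMs than in LN4K1 TIMs, and their part in this difference was not tested.

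**Figure D1:**
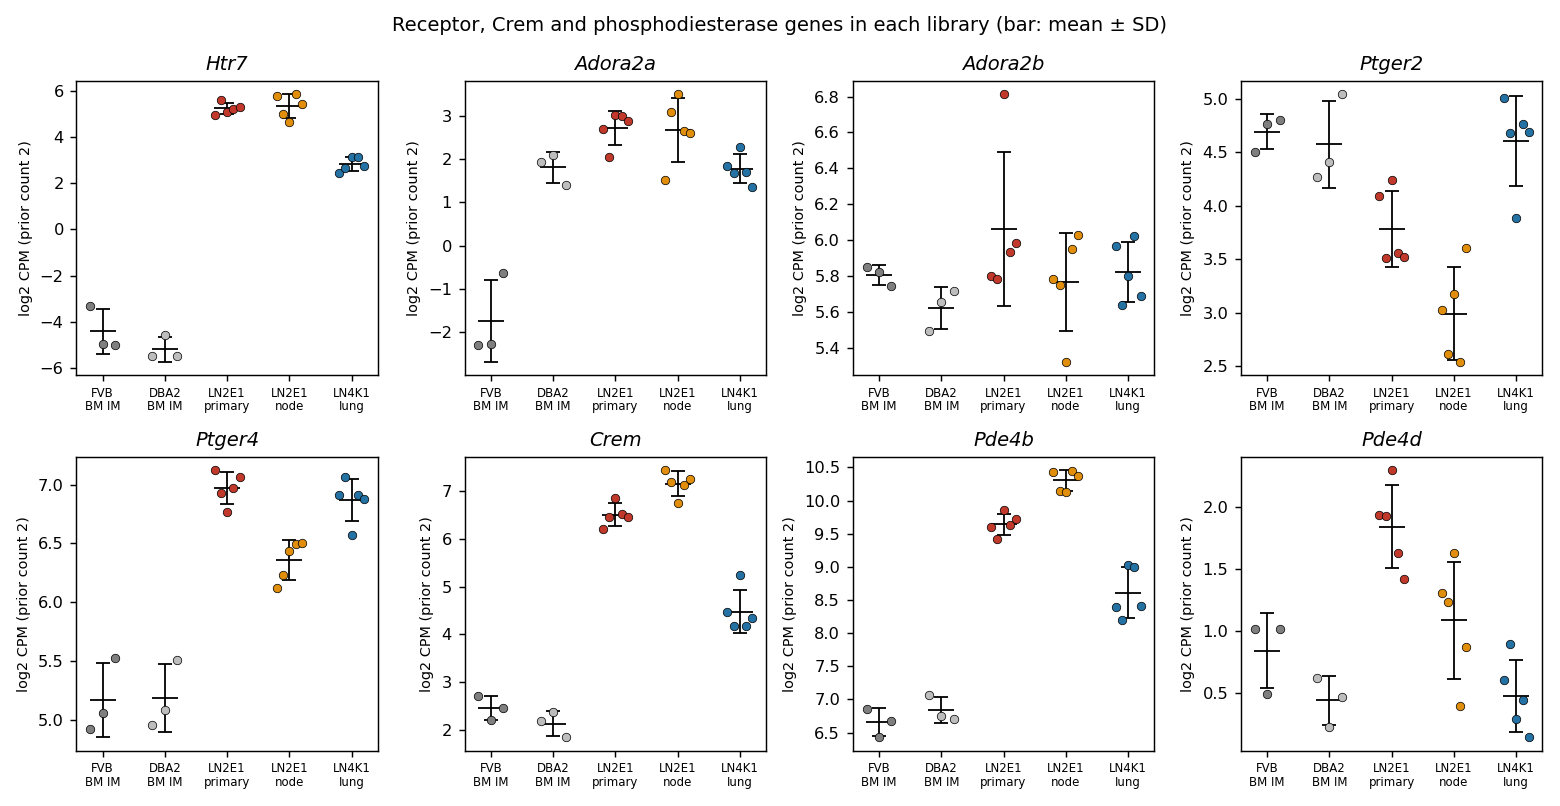
Level of each of the 8 genes in each library, in log2 CPM with a prior count of 2 on the y axis and the 5 groups on the x axis. Points are libraries, and bars are the mean ± SD. Htr7 separated every TIM library from every BM IM library, while Adora2b overlapped between marrow and each TIM group.

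The adenosine receptors differed in level and in pattern. Adora2a (chr10:75316877-75334784, plus strand), a high-affinity adenosine receptor, had 0.182, 0.183 and 0.616 CPM in FVB BM IMs and 3.83, 4.25 and 2.62 CPM in DBA2 BM IMs. Marrow of the strains did not overlap, and DBA2 BM IMs were higher by 3.44 on the log2 scale (SE 0.59, adjusted p = 0.00623), the only 1 of 7 genes tested that passed in this contrast. Among all genes, 21.1% passed between the strains (11.5% higher, 9.57% lower in DBA2). Leaving out any of the 6 marrow libraries gave log2 values between 3.14 and 4.32.

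TIMs had 6.43, 4.16, 8.10, 7.94 and 7.34 CPM of Adora2a in primary tumors, 2.85, 8.47, 11.3, 6.29 and 6.11 CPM in lymph nodes and 3.56, 3.18, 4.88, 3.25 and 2.55 CPM in LN4K1 lungs. The LN2E1 libraries all lay above FVB marrow, with log2 fold changes of 4.32 (SE 0.51) and 4.40 (SE 0.72), which were 5.20 and 5.26 without FVB replicate 3. LN4K1 TIMs overlapped DBA2 marrow (log2 fold change -0.11, SE 0.30). The same TIM gene therefore stood far above marrow in one model and level with it in the other, with marrow itself 10.9-fold apart between strains. Between TIM groups, LN4K1 lung TIMs had 1.97-fold less Adora2a than primary tumor TIMs (log2 fold change -0.98, SE 0.24, adjusted p = 0.00775), with overlapping libraries, and the log2 difference of lymph nodes from primary tumors did not pass (0.05, SE 0.34, adjusted p = 0.945).

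Adora2b (chr11:62248984-62266453, plus strand), a low-affinity adenosine receptor, had group means between 49.3 and 69.5 CPM. Its log2 fold changes against marrow were 0.30 (SE 0.23), -0.02 (SE 0.16) and 0.13 (SE 0.13) in primary tumors, lymph nodes and LN4K1 lungs, and every TIM group overlapped its marrow. It passed in none of the 3 other contrasts with the edgeR test (log2 differences from -0.32 to -0.16, adjusted p from 0.234 to 0.370). Primary tumor replicate 3, at 112 CPM, stood apart from the other 4 primary libraries (55.0 to 63.3 CPM).

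The prostaglandin E2 receptors moved in opposite directions in the LN2E1 model. Ptger2 (chr14:44988195-45003820, plus strand) encodes EP2, and Ptger4 (chr15:5206661-5244187, minus strand) encodes EP4. Ptger2 had 22.7, 27.2 and 27.9 CPM in FVB BM IMs, 17.0, 11.4, 18.9, 11.7 and 11.4 CPM in primary tumors, and 8.09, 6.09, 8.99, 5.80 and 12.1 CPM in lymph nodes. LN2E1 TIMs were thus below FVB marrow without overlap (log2 fold change -0.90, SE 0.20, and -1.66, SE 0.27). Summed neutrophil and eosinophil markers were also higher in FVB marrow, and their part in this was not tested. Among the neutrophil markers, mean Cxcr2 was lower in FVB marrow (2.12 CPM) than in primary tumors (27.3 CPM) and lymph nodes (8.34 CPM). Mmp8 was lower in FVB marrow (436 CPM) than in primary tumors (613 CPM), while Retnlg, Ltf, Camp and Ngp were higher in marrow. For Ptger2, DBA2 marrow had 19.3, 21.2 and 32.9 CPM and LN4K1 lung TIMs 32.1, 25.7, 14.8, 27.1 and 25.8 CPM, which overlapped (log2 fold change -0.04, SE 0.26).

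Ptger4 had 30.4, 33.3 and 46.1 CPM in FVB and 31.1, 33.9 and 45.6 CPM in DBA2 marrow. It had 139, 122, 109, 125 and 134 CPM in primary tumors, 69.8, 75.4, 86.4, 90.4 and 90.5 CPM in lymph nodes and 120, 134, 95.3, 121 and 117 CPM in LN4K1 lungs. Every TIM library lay above every marrow library, with log2 fold changes of 1.76 (SE 0.16), 1.17 (SE 0.18) and 1.60 (SE 0.17). Reads on Ptger4 exons cannot be separated by strand from the pseudogene Gm15937, which overlaps 15.3% of its exon bases, or from Ttc33 (1.23%). The same limit holds for Crem with Gm6225 (8.01%) and for Ptger2 with Gm17173 (4.74%) and Gm49364 (2.77%).

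In the contrasts that were tested, Ptger4 fell in lymph node against primary tumor TIMs by 0.60 on the log2 scale (SE 0.10, adjusted p = 0.00423, no overlap). Ptger2 had a log2 fold change of -0.77 there (SE 0.25, adjusted p = 0.0703), a value that passed with DESeq2 (adjusted p = 0.014) and with all 5 groups in one edgeR fit (adjusted p = 0.030). Ptger2 was 1.76-fold higher in LN4K1 lung than in primary tumor TIMs (log2 0.81, SE 0.23, adjusted p = 0.0142, overlapping libraries). Ptger4 did not pass in that contrast (-0.12, SE 0.11, adjusted p = 0.412).

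The balance between the receptors was read within each library as counts per kilobase of exon. Ptger4 over Ptger2 was 1.10 ± 0.173 in FVB and 1.20 ± 0.10 in DBA2 marrow (SD, n = 3 each). It was 7.34 ± 1.88 in primary tumors, 8.38 ± 2.55 in lymph nodes and 3.81 ± 0.797 in LN4K1 lungs (SD, n = 5 each). Every marrow library was thus between 0.956 and 1.29, and every TIM library between 2.93 and 12.2. The values near 1 depend on the length used. With the longest transcript in place of all exon bases, FVB marrow had 9.71 CPM per kilobase of Ptger4 and 7.04 of Ptger2. Since the genes were chosen with this contrast known, the ratios are a description. Adora2b over Adora2a was 394 ± 216 in FVB marrow, 24.1 ± 7.93 in DBA2 marrow and between 5.86 and 33.5 in TIM libraries.

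**Figure D2:**
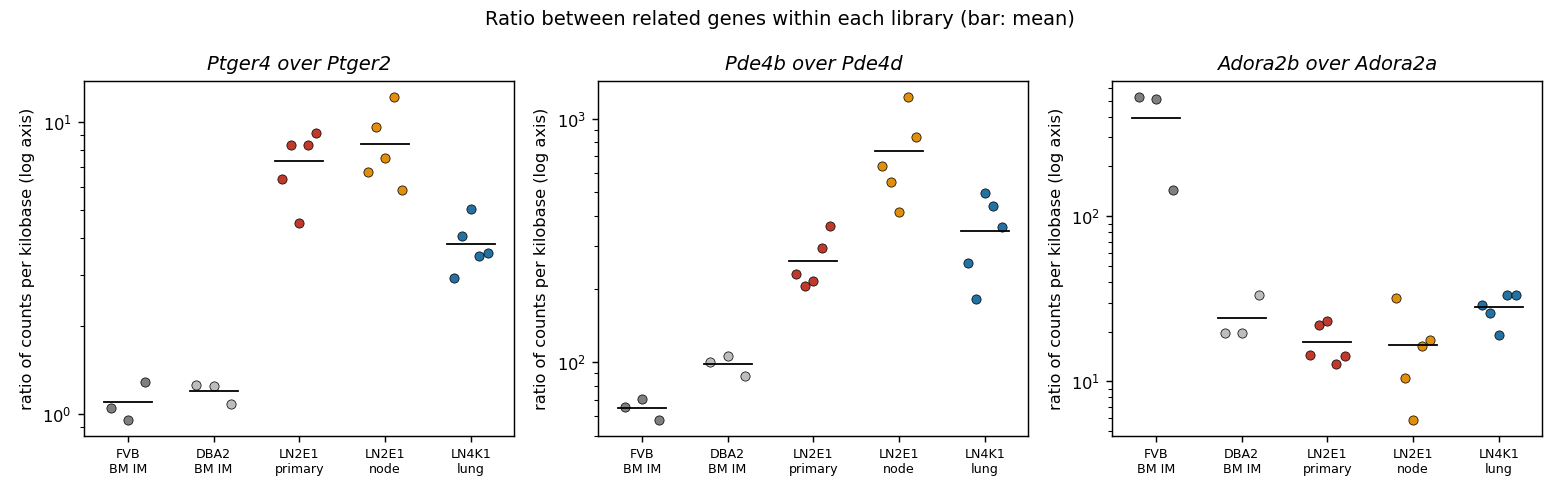
Ratio of counts per kilobase of exon between related genes within each library, on log axes, for the 5 groups. Points are libraries and bars are means; Ptger4 over Ptger2 lay between 0.956 and 1.29 in marrow and between 2.93 and 12.2 in TIMs.

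Crem (chr18:3266048-3337748, minus strand) encodes activators and repressors that bind the CRE, among them the short cAMP-induced repressor ICER, and gene counts do not separate them. It had 6.58, 4.62 and 5.49 CPM in FVB marrow, 73.1, 87.8, 116, 91.8 and 87.9 CPM in primary tumors, and 172, 146, 107, 140 and 152 CPM in lymph nodes. DBA2 marrow had 4.53, 5.21 and 3.60 CPM, and LN4K1 lungs had 22, 18, 37.9, 18 and 20.2 CPM. TIMs were above marrow without overlap, by 16.2-fold in primary tumors, 25.8-fold in lymph nodes and 4.95-fold in LN4K1 lungs. Crem rose in lymph node against primary tumor TIMs (log2 fold change 0.66, SE 0.15, adjusted p = 0.0139), with overlapping libraries. It was 3.98-fold lower in LN4K1 lung than in primary tumor TIMs (log2 fold change -1.99, SE 0.22, adjusted p = 6.05e-05), and leaving out any 1 library gave -2.25 to -1.89.

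Pde4b (chr4:102087543-102607259, plus strand) was the most abundant of the 8 genes in every TIM group. It had 115, 86.2 and 102 CPM in FVB and 134, 107 and 105 CPM in DBA2 marrow. It had 773, 686, 927, 794 and 843 CPM in primary tumors, 1378, 1132, 1125, 1394 and 1330 CPM in lymph nodes and 337, 295, 523, 514 and 341 CPM in LN4K1 lungs. The TIM groups did not overlap each other or marrow, and the log2 fold changes against marrow were 2.97 (SE 0.14), 3.65 (SE 0.16) and 1.72 (SE 0.23). Lymph node TIMs had 1.59-fold more Pde4b than primary tumor TIMs (log2 0.67, SE 0.10, adjusted p = 0.00254), and LN4K1 lung TIMs had 2.03-fold less (log2 -1.02, SE 0.17, adjusted p = 0.000928). Fibroblast markers also differed between lymph node and primary tumor TIMs, and their part in the differences of Pde4b, Crem and Ptger4 was not tested.

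Pde4d (chr13:108449948-109953461, plus strand) was low, at 2.0, 1.39 and 2.0 CPM in FVB and 1.52, 1.15 and 1.36 CPM in DBA2 marrow. Primary tumor TIMs had 3.81, 3.79, 4.90, 3.07 and 2.65 CPM, lymph node TIMs 2.45, 2.33, 3.08, 1.29 and 1.81 CPM, and LN4K1 lung TIMs 1.5, 1.84, 1.20, 1.33 and 1.08 CPM. Only primary tumor TIMs lay above their marrow without overlap (log2 fold change 1.0, SE 0.29), and this was also the group with the highest fibroblast markers, whose part was not tested. Pde4d was 2.65-fold lower in LN4K1 lung than in primary tumor TIMs (log2 fold change -1.41, SE 0.27, adjusted p = 0.00195), and its log2 difference of -0.72 (SE 0.36) in lymph nodes did not pass (adjusted p = 0.233). Per kilobase of exon, Pde4b exceeded Pde4d by 64.9 ± 6.34 times in FVB marrow, 98.1 ± 9.71 in DBA2 marrow (SD, n = 3 each), 261 ± 65.7 in primary tumors, 734 ± 315 in lymph nodes and 346 ± 128 in LN4K1 lungs (SD, n = 5 each).

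**Figure D3:**
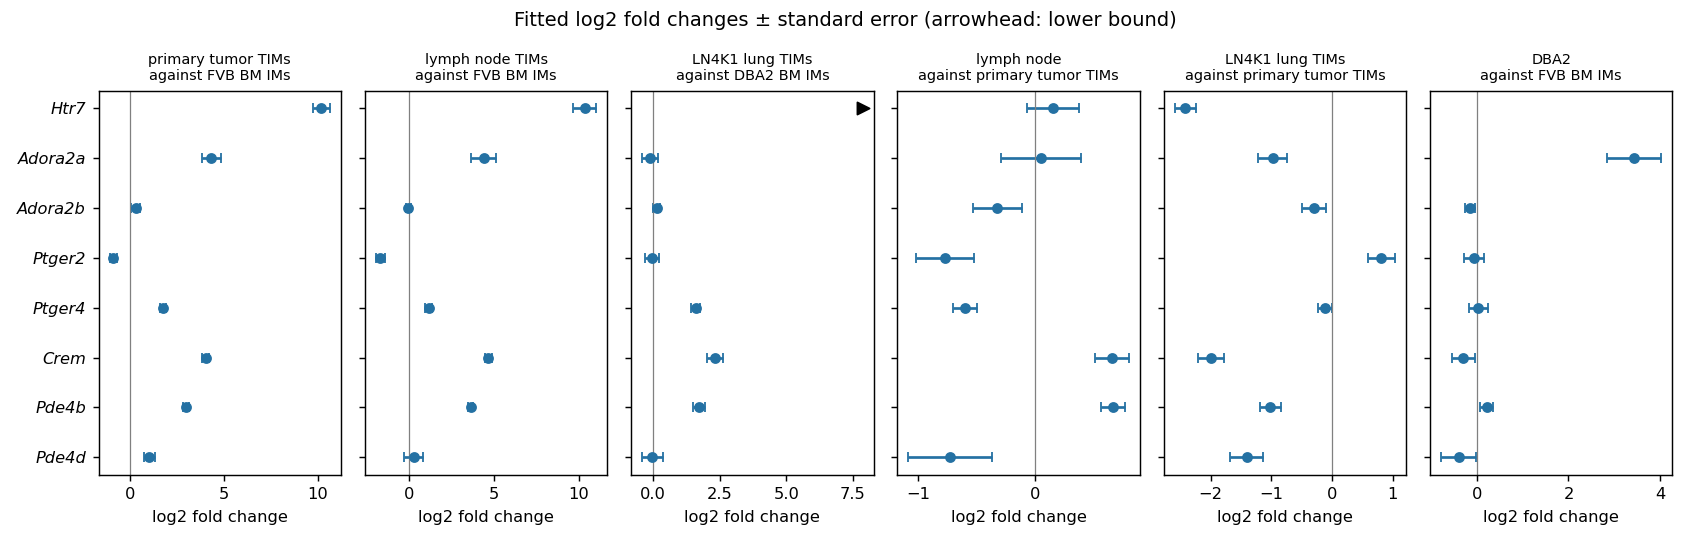
Log2 fold change of each gene in 6 comparisons, with 1 panel per comparison and its own x axis. Points are edgeR estimates and bars their standard error, and the arrowhead for Htr7 in LN4K1 lung TIMs marks the lower bound of 7.86. Adora2a was the gene with the largest difference between the marrow of the strains, where Htr7 was not tested.

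Over the 8 genes, 7 passed an adjusted p under 0.05 in primary tumors against FVB marrow (6 higher, 1 lower), 6 in lymph nodes (5 higher, 1 lower) and 4 in LN4K1 lungs against DBA2 marrow (4 higher). Among all genes tested, 61.9% (33.3% higher, 28.6% lower), 37.4% (20.2% higher, 17.2% lower) and 24.9% (13.9% higher, 11.0% lower) passed in these comparisons, and since the genes were chosen on them nothing is read from the counts. The primary tumor and lymph node comparisons share the FVB BM IM libraries. In lymph node against primary tumor TIMs, which the choice did not use, 3 of 8 passed (Crem and Pde4b higher, Ptger4 lower), beside 11.7% of all genes (6.15% higher, 5.55% lower). In LN4K1 lung against primary tumor TIMs, 6 of 8 passed (Ptger2 higher and 5 lower), beside 41.9% of all genes (21.5% higher, 20.4% lower), and the median log2 fold change of the 8 genes was -1.0, against -0.03 over all genes. Cell line, strain, route and tissue changed together in this comparison and cannot be told apart. Both contrasts between TIM groups reuse libraries of the comparisons with marrow, so their counts and this median are not independent of the choice. Leaving out each library in turn, those with low correlation included, gave 3 or 4 genes in lymph node against primary tumor TIMs and 6 in LN4K1 lung against primary tumor TIMs.

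Levels of different genes were compared per kilobase of exon. In marrow, Adora2b led with 30.3 ± 1.11 CPM per kilobase in FVB and 26.7 ± 2.11 in DBA2 mice (SD, n = 3 each), above Pde4b at 9.60 ± 1.39 and 10.9 ± 1.53, and Htr7 came last with at most 0.0234. Ptger4 and Ptger2 followed Pde4b in both strains and overlapped. In TIMs, Pde4b led with 76.2 ± 8.44 in primary tumors, 120 ± 12.6 in lymph nodes and 38 ± 10.2 in LN4K1 lungs (SD, n = 5 each). In LN4K1 lungs it overlapped Adora2b, at 30.9 ± 3.61. Htr7 was the fifth of the 8 in both LN2E1 groups, at 11.2 ± 2.0 and 12.3 ± 4.11, and overlapped its higher neighbour in each (Crem in primary tumors, Ptger4 in lymph nodes). It was the sixth in LN4K1 lungs, at 2.11 ± 0.431, where it overlapped neither neighbour. These orders depend on the length used, and 25 of the 40 values moved by more than the replicate SD with the longest transcript in place of all exon bases. Pde4b was then first in DBA2 marrow, at 26.8 against 26.7 for Adora2b, and it no longer overlapped the next gene in LN4K1 lungs (93.4 against 31.2 for Ptger4, which passed Adora2b). Crem passed Adora2b in lymph nodes, at 48.9 against 29.9, and Ptger4 no longer overlapped Ptger2 in FVB marrow, at 9.71 against 7.04. Htr7 kept its rank in each group, but it no longer overlapped Crem in primary tumors (12 against 31.1) or Ptger4 in lymph nodes (13.3 against 21.9), and it overlapped Adora2a in LN4K1 lungs (2.27 against 1.34).

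**Figure D4:**
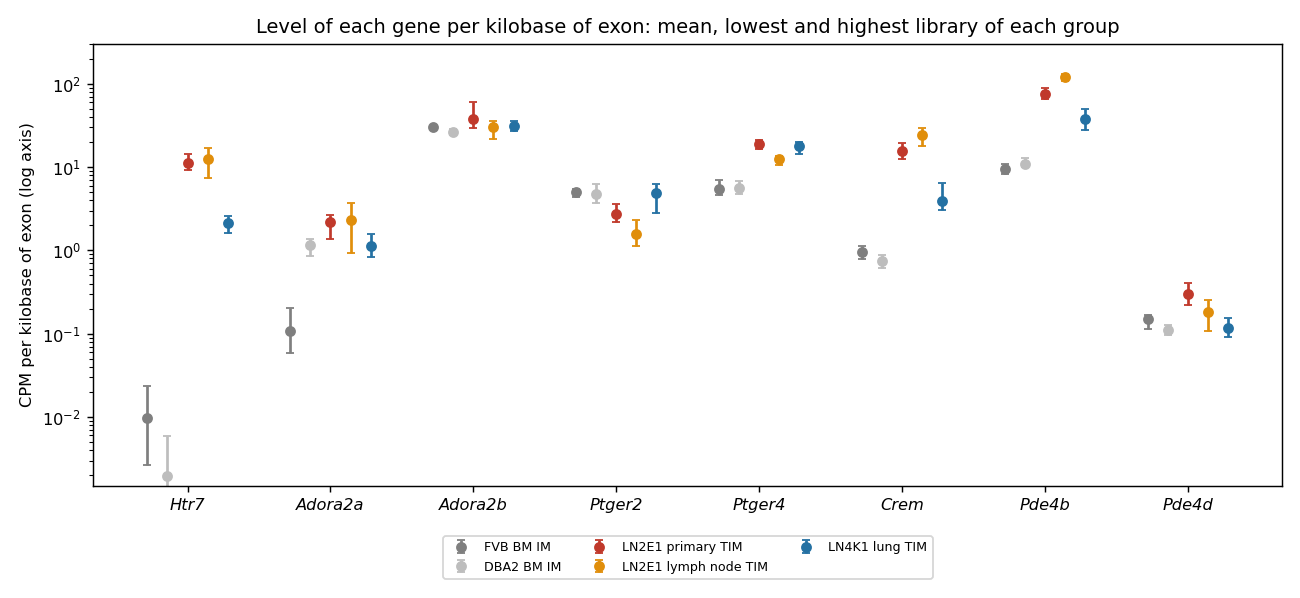
CPM per kilobase of exon of each gene on a log axis, with points at the group mean and bars from the lowest to the highest library; the bar of Htr7 in DBA2 marrow runs to 0 and leaves the axis. Htr7 covers the widest range, from the lowest of the 8 genes in marrow to the middle of them in LN2E1 TIMs.

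The 5 genes whose centred log2 CPM was nearest to that of Htr7 over the 21 libraries, among 14595 genes, were Cxcl11, Gbp4, Tgm2, Irg1 and Dab2, with root mean square differences from 0.84 to 0.997. Cxcl11 encodes an interferon-induced chemokine, Gbp4 an interferon-induced GTPase, Tgm2 a transglutaminase, Irg1 the enzyme that makes itaconate, and Dab2 an endocytic adaptor. Cxcl11 was at 0.158 ± 0.163 CPM in FVB marrow (SD, n = 3), 108 ± 19.9 CPM in primary tumors and 30.2 ± 6.88 CPM in LN4K1 lungs (SD, n = 5 each). As for Htr7, every LN4K1 lung library of each of the 5 genes lay under every primary tumor library. The 5 genes were picked for nearness to Htr7 over these same libraries, so this likeness is no separate result. Of the genes measured here, Crem came nearest to Htr7 (rank 184 of 14595), before Pde4b (rank 405), Adora2a (rank 890) and Ptger4 (rank 1394). The distance includes the step from marrow to TIMs, which was known when these genes were chosen, so their ranks are a description. This ranking rests on group differences shared by many genes, and 1 of the 5 genes (Tgm2) stayed among the nearest with a prior count of 0.5.

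The rest of the pathway was read from 10 lists with 112 other genes, chosen for function with earlier results of these data known. Of those tested, 51 of 83 passed in primary tumors against FVB marrow (37 higher, 14 lower), or 61.4% against 61.9% of all genes. In lymph nodes 29 of 77 passed (22 higher, 7 lower), or 37.7% against 37.4%, and in LN4K1 lungs 19 of 77 passed (15 higher, 4 lower), or 24.7% against 24.9%. The share that passed was thus at the level of all genes in each comparison. Counts of single lists below are to be set beside the same shares of 61.9%, 37.4% and 24.9%, and nothing is read from them. The median log2 fold change of the listed genes was 0.59, 0.25 and 0.25, against 0.08, -0.04 and 0.03 over all genes. Nt5e, Adora3, Ptgs1, Hpgd, Hrh2, Adcy4, Crtc3, Nr4a1 and Junb are named below because they passed in the same direction in every comparison with marrow. Entpd1 and Ptgs2 were named in any case and also met this rule. That the genes picked by this rule passed was fixed by the choice, so their p-values against marrow are a description. Nr4a2, Calcrl, Adcy8, Rapgef3 and Pde2a were picked for the largest changes in other contrasts.

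Among 13 other serotonin receptor genes, 7 were at or under 3 counts in all 21 libraries (Htr1a, Htr1f, Htr2c, Htr3a, Htr3b, Htr4 and Htr6). Only Htr2a or Htr2b passed the filter on low counts in a comparison with marrow, with group means of at most 0.186 and 0.163 CPM, and neither passed the test. No library had more than 0.523 CPM of any of the 13, against at least 5.45 CPM of Htr7 in each TIM library. Of 8 genes of serotonin synthesis and handling, 1 passed in each comparison. The serotonin transporter Slc6a4 was lower in primary tumor (log2 fold change -2.92, SE 0.78, adjusted p = 0.00900) and lymph node TIMs (-4.98, SE 1.56, adjusted p = 0.0301) than in FVB marrow, where the medians of platelet markers (67.9 CPM) and of mast cell and basophil markers (86.0 CPM) were also the highest of the 5 groups, and their part was not tested. The vesicular transporter Slc18a1 rose in LN4K1 lungs against DBA2 marrow (1.09, SE 0.31, adjusted p = 0.0301). These genes were named after their values were seen.

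Among genes of adenosine receptors and handling, Entpd1 (CD39, which removes phosphates from extracellular ATP) was at 19.9 ± 1.56 CPM in FVB marrow (SD, n = 3), 234 ± 33.3 CPM in primary tumors and 257 ± 52.0 CPM in lymph nodes (SD, n = 5 each), with log2 fold changes of 3.54 and 3.69. It rose by 1.24 in LN4K1 lungs (SE 0.23, adjusted p = 0.00353). Nt5e (CD73, which makes adenosine from AMP) was at or under 0.296 CPM in every marrow library and at 25.5 ± 10.6 CPM in primary tumors, 16.0 ± 7.62 CPM in lymph nodes and 9.84 ± 5.80 CPM in LN4K1 lungs (SD, n = 5 each), where 1 library had 0 and the call was lost without any 1 of the DBA2 libraries or LN4K1 replicate 5 (log2 fold changes from 5.62 to 7.63 over all runs that left out 1 library). Adora3, an adenosine receptor that lowers cAMP, rose by 2.21, 1.83 and 1.19 on the log2 scale (adjusted p = 9.34e-05, 0.00844 and 0.00565). Of the 8 genes of this list, 6 passed in primary tumors (3 higher, 3 lower). The lower ones were Ada and Adk, which remove adenosine, and the transporter Slc29a1, with log2 fold changes of -0.79, -0.42 and -0.78 (adjusted p = 0.00399, 0.0189 and 0.00373), named after their values were seen. In lymph nodes 3 of 7 passed (3 higher), and 4 of 7 in LN4K1 lungs (3 higher, 1 lower).

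Among 9 genes of prostaglandin E2, 8 of 9 passed in primary tumors (5 higher, 3 lower), 6 of 8 in lymph nodes (3 higher, 3 lower) and 4 of 9 in LN4K1 lungs (3 higher, 1 lower). Of all genes, 61.9%, 37.4% and 24.9% passed there. The inducible cyclooxygenase Ptgs2 was higher than marrow in all of these comparisons (log2 fold changes 4.13, 2.71 and 1.76, adjusted p = 6.15e-07, 7.57e-05 and 0.00309), and the constitutive Ptgs1 lower (-1.48, -3.26 and -2.31, adjusted p = 0.00011, 0.0185 and 0.000426). In lymph nodes the call of Ptgs1 was lost without FVB replicate 2 (-3.48 to -2.94 over all runs that left out 1 library). Hpgd, which inactivates prostaglandin E2, was higher (1.21, 1.55 and 2.32, adjusted p = 0.00738, 0.00900 and 0.0126). Ptgs2 fell in lymph node against primary tumor TIMs by 1.44 on the log2 scale (SE 0.21, adjusted p = 0.00194). Fibroblast markers also fell in this contrast, and their part was not tested.

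Of 17 other Gs-coupled receptors, 4 of 10 tested passed in primary tumors, 2 of 8 in lymph nodes and 3 of 7 in LN4K1 lungs. The histamine receptor Hrh2 rose by 3.25, 2.84 and 2.25 on the log2 scale (adjusted p = 2.32e-06, 0.000250 and 0.00111). Calcrl, part of the receptor for CGRP, was 1.24 higher in lymph node than in primary tumor TIMs (SE 0.25, adjusted p = 0.00843).

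For Gs proteins and adenylyl cyclases, 5 of 9 passed in primary tumors, 3 of 8 in lymph nodes and 2 of 8 in LN4K1 lungs. Gnas, which encodes Gs alpha, passed in none of them (log2 fold changes -0.10, -0.10 and 0.38, adjusted p from 0.253 to 0.799). Adcy4 rose by 2.50, 3.75 and 3.00 (adjusted p = 0.000471, 0.0162 and 0.0397). Its call was lost in lymph nodes without any 1 of the FVB libraries (3.39 to 4.05 over all runs that left out 1 library), and in LN4K1 lungs without any 1 of the DBA2 libraries or LN4K1 replicate 1, 2 or 5 (2.61 to 3.51). Adcy8 was at 4.53 ± 1.82 CPM in primary tumor TIMs (SD, n = 5) and at or under 3 counts in every library of the other groups, at least 149-fold over FVB marrow and 123-fold over lymph node TIMs. The Epac gene Rapgef3 was at 2.33 ± 1.60 CPM in primary tumors (SD, n = 5) and at or under 3 counts in every lymph node library, at least 63.3-fold lower. Fibroblast, squamous epithelium and endothelium markers were also highest in primary tumor TIMs, and their part was not tested.

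Among 14 other phosphodiesterases, 5 of 10 passed in primary tumors (4 higher, 1 lower), 2 of 9 in lymph nodes (2 higher) and 0 of 9 in LN4K1 lungs with edgeR. The strains differed in Pde2a, at 97.1 ± 33.0 CPM in FVB and 2.82 ± 0.778 CPM in DBA2 marrow (SD, n = 3 each; log2 difference -5.09, SE 0.33, adjusted p = 7.06e-05), and their TIMs differed likewise, at 98.0 ± 13.8 CPM in primary tumors and 1.38 ± 0.763 CPM in LN4K1 lungs (SD, n = 5 each). Neither TIM group passed against its own marrow for Pde2a. In PKA and Epac genes, 6 of 11 passed in primary tumors, 4 of 10 in lymph nodes and 1 of 11 in LN4K1 lungs, where the regulatory subunit Prkar2a rose by 0.71 (SE 0.20, adjusted p = 0.0310).

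All 7 CREB factors and coactivators passed in primary tumors (5 higher, 2 lower), 2 of 7 in lymph nodes and 1 of 7 in LN4K1 lungs. The shares of all genes were 61.9%, 37.4% and 24.9%. The coactivator Crtc3 rose by 2.12, 1.84 and 1.42 (adjusted p = 3.21e-05, 0.000245 and 0.00105). Of 13 CREB target genes, 9 passed in primary tumors (9 higher), 6 in lymph nodes (5 higher, 1 lower) and 3 in LN4K1 lungs (3 higher). The orphan receptor Nr4a1 rose by 3.64, 3.27 and 2.24 (adjusted p = 9.23e-05, 0.000455 and 0.000163) and Junb by 1.63, 1.42 and 1.67 (adjusted p = 2.73e-06, 0.000170 and 0.000105). Nr4a2 rose further in lymph node against primary tumor TIMs (1.44, SE 0.20, adjusted p = 0.00178), while Fos, Dusp1 and Thbs1 of the same list fell (-1.33, -0.56 and -0.81, adjusted p = 0.000167, 0.0223 and 0.0109). Fos and Dusp1 were named after their values were seen. The part of fibroblast markers in this contrast was not tested. Of the listed genes, 16 of 77 passed in that contrast (6 higher, 10 lower), beside 11.7% of all genes, and 28 of 76 in LN4K1 lung against primary tumor TIMs (11 higher, 17 lower), beside 41.9%. Between the strains of marrow, 21 of 70 passed (13 higher and 8 lower in DBA2), beside 21.1%.

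**Figure D5:**
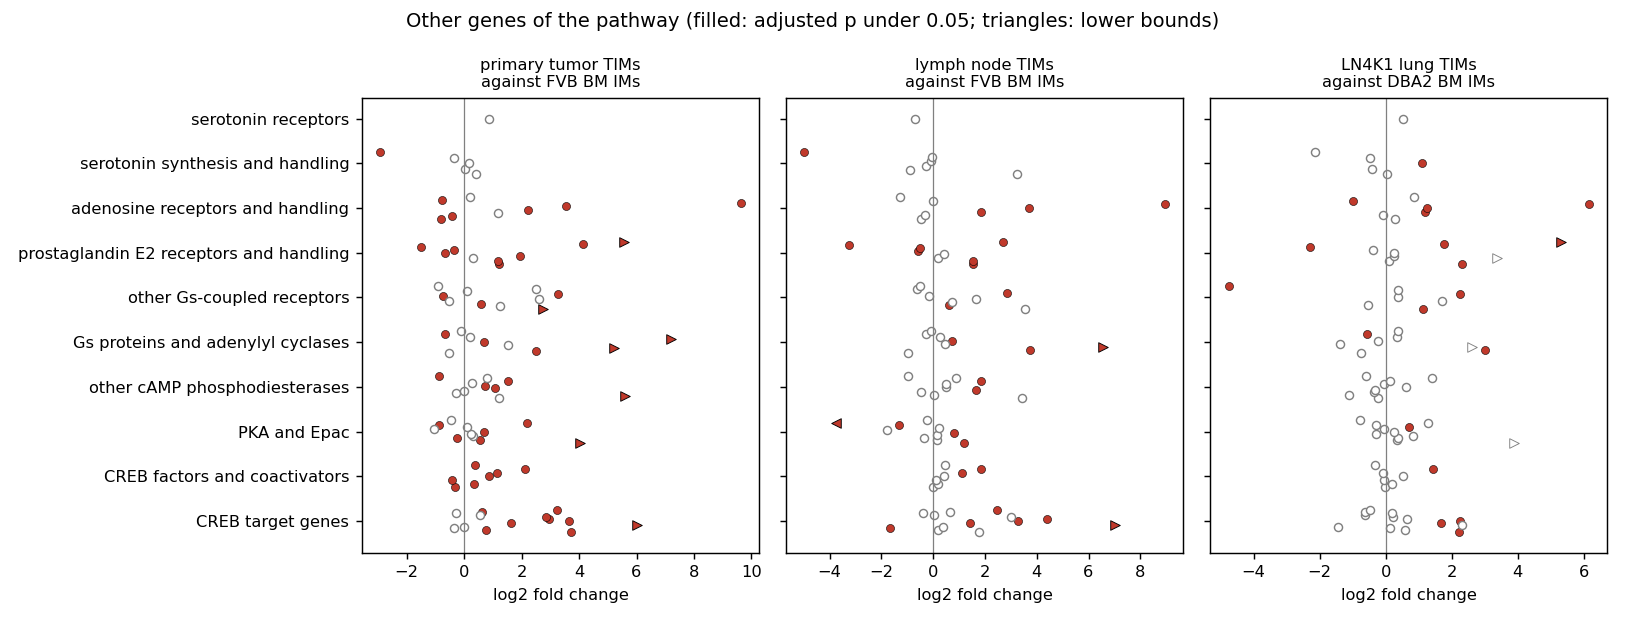
Log2 fold change (x axis) of the genes tested in each of the 10 lists (y axis), for the 3 comparisons of TIMs with BM IMs. Filled symbols passed an adjusted p under 0.05, open symbols did not, and triangles are lower bounds for genes at the floor in the other group. The serotonin receptor row holds 1 gene in each panel, and most CREB target genes lay to the right of 0 in primary tumors.

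Whether the change from marrow differed between LN2E1 primary tumors and LN4K1 lungs was tested as an interaction for the listed genes. It passed for 21 of 85 (17 with the larger value in primary tumors, 4 with the smaller), beside 26.5% of all genes (13.2% larger, 13.3% smaller). Among them, Entpd1 differed by 2.32 on the log2 scale (SE 0.27, adjusted p = 7.78e-05) and Ptgs2 by 2.39 (SE 0.37, adjusted p = 0.000661), both with the larger rise in primary tumors. For the 8 genes chosen, the values are given side by side only: 4.02 and 2.31 for Crem, 2.97 and 1.72 for Pde4b, 1.76 and 1.60 for Ptger4, and -0.90 and -0.04 for Ptger2.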

How the data were processed

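The deposited table holds raw read counts for 23420 gene symbols in 21 libraries of sorted mouse IMs, and 0 of its columns were without a sample. The authors amplified RNA with a SMART kit, made unstranded Nextera XT libraries, trimmed with BBDuk, mapped read pairs to mm10 (GRCm38) by BBMap, then assigned them to genes by featureCounts 1.5.2; SAMtools 1.8 is also named in the submitters' processing notes. Groups came from the sample labels. Replicates of a group differed by more than counting noise (mean chi-square per gene from 53.0 to 1108 over 36 pairs).

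The main test was edgeR 4.0.16 under R 4.3.3 (TMM factors, filterByExpr at 10 counts per library and 15 in total, robust quasi-likelihood test, Benjamini-Hochberg adjustment over all genes tested), 1 fit per comparison. The study used DESeq2, which was run here as an alternative (1.42.0). A standard error is the absolute log2 fold change divided by the square root of F, which is approximate. Log2 CPM used a prior count of 2. Scripts were tested on simulated data. Tables and figures used Python 3.11.15. Locations are from GENCODE vM21, promoter windows from RefSeq. Lengths are the union of exon bases.

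The 8 genes, the lists and the tests were chosen with earlier results of these data known. Named genes were the 8 genes, the 5 nearest to Htr7, up to 3 per list that passed in the same direction in the 3 comparisons with marrow, up to 2 per direction with the largest change in the other contrasts, and Entpd1, Ptgs2 and Gnas. Alternatives were DESeq2 size factors, filters of 1 count in total and of 10 counts in every library, all 5 groups in one fit, DESeq2 with and without shrinkage, blocking on replicate number, the longest transcript as length, a prior count of 0.5, and leaving out each library. Some items of the lists and sequences are not reported here.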

Additional observations from a re-analysis of the deposited data

Results flagged for a closer look

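Of 111 pairs of a named gene and a group of 5 libraries, 10 had an outlying highest or lowest library by Dixon's test. The test sets the gap against the range of the libraries, and chance gives such a library in about 1 in 20 pairs. Primary tumor replicate 3 was the highest for Adora2b (112 CPM, others 55.0 to 63.3) and Crtc3 (50.8 CPM, others 28.5 to 32.3). It was also the highest for Junb (3957 CPM, others 3544 to 3640) and Nr4a2 (62.7 CPM, others 40.2 to 44.7). Primary replicate 1 was the lowest for Vipr2 (0 CPM, others 0.110 to 0.124). LN4K1 lung replicate 3 was the highest for Crem (37.9 CPM, others 18 to 22) and Hpgd (31.6 CPM) and the lowest for Dab2 (9.78 CPM). LN4K1 lung replicate 2 was the highest for Rapgef3 (1.04 CPM, others at most 0.290) and replicate 4 for Vipr2 (0.383 CPM, others at most 0.0223).

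The change from marrow differed between LN2E1 primary tumors and LN4K1 lungs, by the interaction test of edgeR, for 9 named genes. The difference on the log2 scale was 2.32 for Entpd1 (adjusted p = 7.78e-05), 1.04 for Adora3 (adjusted p = 0.0371), 2.39 for Ptgs2 (adjusted p = 0.000661), 1.42 for Nr4a1 (adjusted p = 0.0322), 2.31 for Nr4a2 (adjusted p = 0.0039), 1.43 for Pde7b (adjusted p = 0.0188) and 3.75 for Thbs1 (adjusted p = 0.00068). It was -1.08 for the proton-sensing receptor Gpr65 (adjusted p = 0.00117) and -0.90 for the prostaglandin synthase Ptges2 (adjusted p = 0.00156). Thbs1 was at 4960 ± 759 CPM in primary tumors and 440 ± 84.4 CPM in LN4K1 lungs (SD, n = 5 each), with 510 and 581 CPM as the marrow means.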

How the results depend on the processing

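The counts of the 8 genes that passed moved by at most 1.5 times under every alternative run. For the listed genes, the replicate number as a block gave 9 in LN4K1 lungs against marrow (19 without it) and 8 in lymph node against primary tumor TIMs (16 without it), and all 5 groups in one fit gave 12 between strains (21). Leaving out each library gave 11 to 27 in LN4K1 lungs against marrow (11 without DBA2 replicate 2, 12 without DBA2 replicate 1), 8 to 27 between strains (8 and 10 without DBA2 replicates 3 and 2, 9 and 10 without FVB replicates 2 and 1) and 13 to 25 in the interaction (13 without FVB replicate 1 or 2). The cause was not tested.

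Replicate numbers gave no clear pairing of the libraries: over 22 pairs with the same number, correlations of deviations ran from -0.154 to 0.195, and 3 were over 0.1. In 8 pairs the same number was the closest library of the other group, none of them between lymph nodes and primary tumors. There the correlations ran from -0.154 to 0.0549. Such correlations cannot exclude that lymph node and primary tumor libraries of the same number came from the same mouse. Under the replicate block, Crem in lymph node against primary tumor TIMs had an adjusted p of 0.092. The block also ended the calls of Entpd1 and Adora3 in LN4K1 lungs, of Adora3, Ptgs1 and Hpgd in lymph nodes against marrow, and of Calcrl in lymph node against primary tumor TIMs. One fit of all groups ended that of Ptgs1 in primary tumors.

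Small differences that had not passed changed sign. Leaving out each library gave -0.29 to 0.034 for Adora2a in LN4K1 lungs against marrow, -0.20 to 0.26 for Adora2a in lymph node against primary tumor TIMs, -0.083 to 0.078 for Adora2b in lymph nodes against marrow, and -0.18 to 0.24 for Ptger2 and -0.13 to 0.073 for Pde4d in LN4K1 lungs against marrow. It gave -0.34 to 0.079 for Ptger2 and -0.15 to 0.25 for Ptger4 between strains, and -0.27 to 0.079 and -0.18 to 0.036 for Gnas in primary tumors and lymph nodes against marrow. The replicate block gave 0.051 and -0.042 for Adora2a in LN4K1 lungs and in lymph node against primary tumor TIMs, 0.089 for Pde4d in LN4K1 lungs and 0.017 for Gnas in lymph nodes. All 5 groups in one fit gave 0.021 for Ptger2 and 0.033 for Pde4d in LN4K1 lungs.

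The fitted fold of Htr7 depends on shrinkage where marrow is near 0 (7.45 in LN4K1 lungs with shrunken DESeq2, 9.71 with edgeR), and a filter of 10 counts in every library leaves Htr7 untested against marrow. Shrunken DESeq2 was not run for the interaction.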
